A study of Mus musculus with 12 samples.

Results

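Interferon-induced genes are the genes that cells switch on after an interferon binds its receptor. They were followed here as a list of 48 gene symbols, taken by name and not by their values in these libraries. All 48 were found among the 23973 genes of the table for marrow B cells and among the 24015 genes of the table for splenic B cells. The study compared WT mice with littermates that carry the T58A allele of MYC, a transcription factor that drives growth. T58 is a phosphorylation site through which MYC is marked for degradation, and the change to alanine removes it. RNA was sequenced in 12 libraries in 4 groups of 3. WT and T58A marrow B cells, described in the study design as immature, were grown with IL7, a cytokine that B cell precursors need to divide. WT and T58A mature B cells from spleen were grown with LPS, a bacterial wall component that activates B cells through TLR4. All cells were harvested after 48 hours, and no library of uncultured or unstimulated cells was used here. No interferon is named among the treatments. The labels used here give neither the age or sex of the animals nor how many copies of the allele they carry, and they do not say whether 1 library came from 1 animal. The p-values therefore measure the spread between these libraries, which may be technical in part.

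Type I interferons signal through the receptor IFNAR and the kinases JAK1 and TYK2. These activate STAT proteins, among them STAT2, which acts with IRF9 in the complex ISGF3. ISGF3 binds a short DNA element, the interferon-stimulated response element or ISRE. Type II interferon acts through the receptor IFNGR and another DNA element, the gamma-activated site or GAS. The induced proteins include sensors of foreign RNA and DNA, enzymes that stop translation or degrade RNA, and GTPases that attack the vacuoles of intracellular pathogens. Several of the transcription factors are themselves induced, so that a low resting level of interferon signalling sets the basal level of many of these genes.

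The 48 genes were grouped into 10 roles, from transcription factors to antiviral effectors. They lie on 15 chromosomes, and 9 of them are on chromosome 11, 8 on chromosome 5 and 6 on chromosome 16. Reads assigned to genes numbered 8486753 to 10201113 per IL7 library and 5110746 to 9332410 per LPS library. Values are given as normalised reads, the deposited scale on which each library's reads are divided by 1 size factor, and a level per kilobase divides that by the length of the gene's annotated exons. A count of 0 allows up to 3 reads, which are 2.15 to 4.12 normalised reads depending on the library (counting error only). Some members share sequence with a close copy, so their reads may be split or mixed, and their values are uncertain. Of the 50-base stretches of their annotated transcripts, 70.7% were also found in another gene for Gbp6, 57.6% for Oas1a, 51.2% for Ifit3 and 47.0% for Phf11b. The share was 12.7% or less for each of the other members. Igtp overlaps Irgm2, Gbp4 overlaps Gbp9 and Parp9 overlaps Dtx3l in the annotation. Igtp and Irgm2 lie on the same strand, as do Gbp4 and Gbp9, and the kit does not mark strand, which would be needed for Parp9 and Dtx3l. Reads from these overlaps may therefore be split or mixed too.

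Several libraries stand apart in ways that touch the comparisons. In IL7 cultures Xist, the RNA of the inactive X chromosome, was at 12436 normalised reads in WT 1 and 23674 in WT 2, against 5.51 in WT 3 and 4.76 to 26.9 in T58A. The same split was seen in LPS cultures, with Xist at 11281 in WT 1, 16684 in WT 2 and at most 8.85 in the other 4 libraries. IL7 WT 2 also held the Y-linked gene Ddx3y at 42.6 normalised reads, against 0 in WT 1 and 706 to 914 in the other 4 IL7 libraries, and Igj, the joining chain of antibodies, at 611 against 21.9 to 105 in the other 5. Members that fell without pair 2 are given beside the IL7 result. The sum of 4 Y-linked genes was 1.86 normalised reads in IL7 WT 1 and 168 in WT 2. It was 2258 to 2566 in the other 4 IL7 libraries. In LPS cultures the sum was 0 in WT 1 and WT 2 and 2817 to 3773 in the other 4 libraries. By these RNAs WT 1 and WT 2 of both cultures look mainly female, and WT 3 and all T58A libraries male. Pairs 1 and 2 therefore differ in apparent sex as well as in genotype, and the 2 cannot be told apart there. Pair 3 does not differ in apparent sex. The LPS table gives the same header to 2 of its T58A columns, so only T58A 3 can be tied to its pair. The others are named by their order, as the first or second unnumbered column. B cell markers were high in all libraries (5 genes that summed to 25686 to 46272 normalised reads in IL7 and 30674 to 35220 in LPS cultures). Precursor B cell markers (7 genes) summed to 16151 to 23606 in IL7 and 14.7 to 58.8 in LPS cultures.

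Stretches of DNA upstream of members that fell in T58A are shown to let the response elements be seen beside the values that follow. They are the members with values in every library below whose 250 bases before the start site, in the RefSeq promoter table for GRCm38.p6, held the letters searched for. ISRE letters were taken as a pair of GAAA with any 2 bases between them, on either strand, which reads as a pair of TTTC on the other. GAS letters were taken as TTCNNNGAA, which reads the same on both strands. Each sequence runs 5′ to 3′ on the gene's strand, with the matching letters in capitals, and its position is that of the first capital relative to the start site. Gbp2, Gbp3 and Phf11b are shown as shorter stretches. The sequence of Isg15, which did not pass the test, is added for comparison because its window holds 3 overlapping matches, of which the middle one is in capitals.
Stat2, transcription factor, ISRE at -222, chr10:128270251-128270310, plus strand: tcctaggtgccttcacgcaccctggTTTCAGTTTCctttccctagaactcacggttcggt
Irf1, transcription factor, GAS at -90, chr11:53769899-53769957, plus strand: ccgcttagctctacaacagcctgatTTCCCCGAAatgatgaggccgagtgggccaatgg
Trim30a, antiviral and inflammasome regulator, ISRE at -36, chr7:104465195-104465254, minus strand: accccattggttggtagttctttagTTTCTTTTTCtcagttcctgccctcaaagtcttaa
Igtp, immunity-related GTPase, ISRE at -34, chr11:58199497-58199555, plus strand: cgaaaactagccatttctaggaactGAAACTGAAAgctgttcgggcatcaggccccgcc
Gbp2, guanylate-binding protein, ISRE at -59, chr3:142620594-142620623, plus strand: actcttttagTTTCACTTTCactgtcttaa
Gbp3, guanylate-binding protein, ISRE at -45, chr3:142559989-142560018, plus strand: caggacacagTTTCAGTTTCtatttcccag
Phf11b, PHD finger protein, ISRE at -50, chr14:59341361-59341390, minus strand: cacatttagaGAAAAAGAAActagaaacta
Isg15, ubiquitin-like protein, ISRE at -72, chr4:156200856-156200915, minus strand: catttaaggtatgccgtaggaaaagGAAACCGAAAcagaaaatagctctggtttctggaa
The capitals of Stat2 and Gbp3 are the same 10 letters. Gbp3 holds another ISRE match at -39, which overlaps the one in capitals and is left in lower case. Igtp also holds a GAS match at -45, just before its ISRE match.

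Of the 48 members, 34 were matched by symbol in the promoter table. ISRE letters were found in 16 of these 34 (47.1%) and in 3.46% of all 27025 genes with a window. GAS letters were found in 9 of 34 (26.5%) and in 8.13% of all genes. Both elements were present in 5 members, ISRE alone in 11, GAS alone in 4 and neither in 14. The E-box CACGTG, the letters that MYC and its partner MAX bind best, was in 0 of 34 windows and in 6.86% of all genes. A match is a description of letters in this window, not of binding. Among the 11 matched members that fell in IL7 cultures, 6 held ISRE letters and 2 held GAS letters, and among the 18 tested members that did not pass the test, 7 and 7. The remaining 5 were too low to test in IL7 cultures, and 3 of them held ISRE letters.

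**Figure D1:**
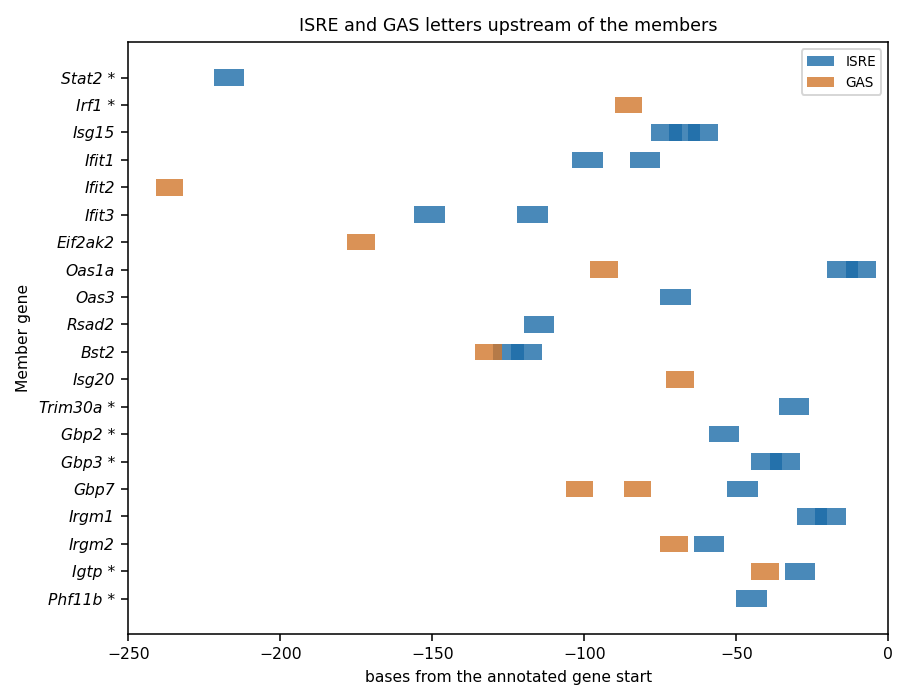
Positions of ISRE and GAS letters in the 250 bases before the RefSeq start site (x axis, bases from the start site) for the members with a match (y axis). A star marks members that fell in T58A in IL7 cultures; ISRE letters were found in 16 of the 34 matched members and GAS letters in 9.

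The level of these genes differed widely between the WT cultures, both of them stimulated. Compared on a joint scale of CPM, reads scaled to each library's total, 44 of the 47 members tested were higher in LPS than in IL7 cultures and 2 were lower (limma on log2 CPM, Benjamini-Hochberg adjusted p under 0.05). Over all 11694 genes tested, 28.4% were higher in LPS and 28.2% higher in IL7 cultures. The median log2 difference of the members was 2.11, against -0.02 over all genes. Ifit1, Ifit3, Oasl1, Mx1, Mx2 and Rsad2 had too few reads in IL7 cultures for the genotype comparison and entered here through the LPS libraries where they are high. Without these 6, 38 of 41 members were higher in LPS and 2 in IL7 cultures, with a median of 1.795. Iigp1, of these 2, was too low to test for genotype in LPS cultures and entered here through the IL7 libraries where it is high. This comparison joins tissue, cell stage, stimulus and culture, which cannot be told apart.

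The RNA sensor relative Oasl1, a brake on Irf7 translation, was the member with the largest fitted difference, on few reads in IL7 cultures. It measured 0.758, 2.35 and 1.13 CPM in IL7 WT 1 to 3 and 52.7, 63.7 and 63.7 CPM in LPS WT 1 to 3, a log2 difference of 5.42 ± 0.35 (SE; adjusted p from limma = 2.25e-06). Rsad2, the antiviral enzyme viperin, was at 0.0947, 0.469 and 0.113 CPM against 10.8, 18.5 and 9.42 CPM (log2 5.32 ± 0.49). Irf7, the factor that amplifies interferon production, was at 2.94, 5.54 and 3.84 CPM against 146, 167 and 122 CPM (log2 5.14 ± 0.24). No IL7 library reached the lowest LPS library for any of the 3. Rsad2 rested on few reads in IL7 cultures, with 1, 5 and 1 in WT.

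Gbp7 and Iigp1 were the 2 members higher in IL7 cultures. Gbp7, a guanylate-binding protein, was at 202, 246 and 397 CPM in IL7 and 82.2, 89.5 and 94.5 CPM in LPS WT libraries, 3.05-fold higher in IL7 (log2 LPS minus IL7 -1.61 ± 0.22, adjusted p from limma = 0.000189). Iigp1, an immunity-related GTPase that acts on parasite vacuoles, was at 3.69, 3.47 and 21.4 CPM in IL7 and 0.638, 0.537 and 0.912 CPM in LPS cultures (log2 -3.05 ± 0.64, adjusted p from limma = 0.00253). WT 3 alone set the high mean of Iigp1 in IL7 cultures. Ifit2, which binds RNA and blocks translation, was at 17.1 to 23.4 CPM in IL7 and 17.3 to 29.6 CPM in LPS cultures, and the groups overlapped (adjusted p from limma = 0.790). Its relatives Ifit1 and Ifit3 were 5.13 and 4.50 higher on the log2 scale in LPS cultures. Per kilobase, the WT mean of Ifit2 in IL7 cultures was 52.0 normalised reads, against 1.15 for Ifit1 and 1.50 for Ifit3.

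**Figure D2:**
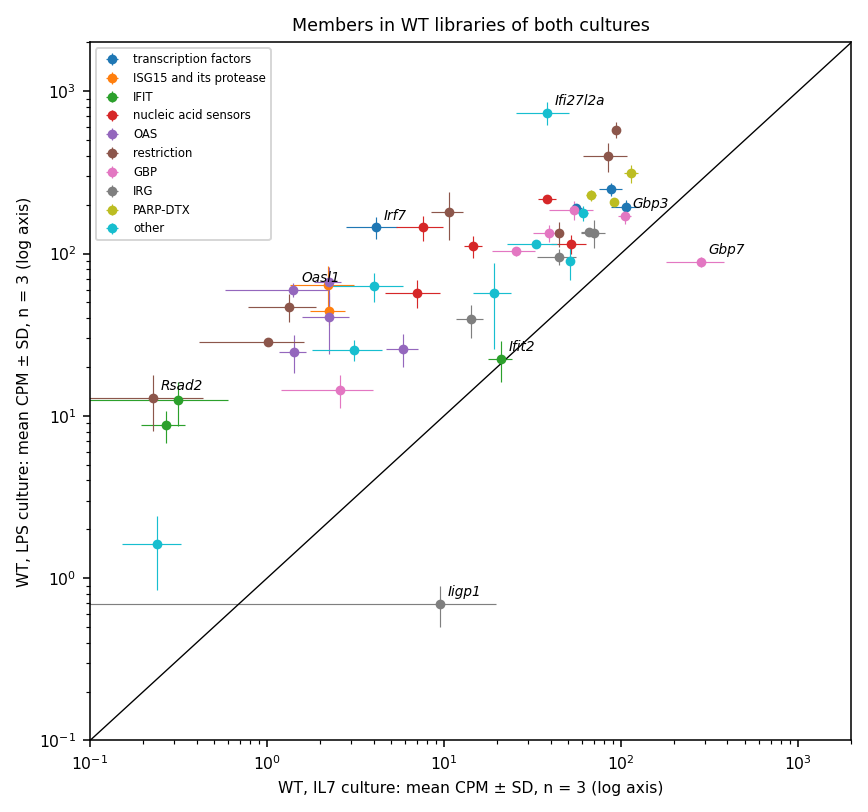
Mean CPM of each member in the 3 WT libraries of the IL7 (x axis) and LPS cultures (y axis), both on log axes, with bars of 1 SD (a lower bar that would pass 0 runs to the edge) and a line of equality. Of the 47 members tested 44 were higher in LPS cultures, and Gbp7 and Iigp1 lie below the line.

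In IL7 cultures 15 of the 48 members fell in T58A and 0 rose. These were Stat2, Irf1, Irf9, Ddx58, Zbp1, Samd9l, Trim30a, Gbp2, Gbp3, Gbp4, Gbp9, Igtp, Ifi27l2a, Xaf1 and Phf11b. The falls ran from 1.25-fold for Irf1 to 3.05-fold for Phf11b on the log2(value + 1) scale, which understates the change of low genes. Of the members, 41 had enough reads to be tested, and 36 of these had a negative and 5 a positive log2 difference. Over all 11604 genes tested, 6.31% fell and 6.41% rose by the same test (limma on log2 of normalised reads plus 1 with the pair as a block, adjusted p under 0.05). The median log2 difference was -0.44 over the tested members and -0.01 over all genes. A member expressed only in WT could pass the read filter through that group, so the counts describe the tested members only. Ifit1, Ifit3, Oasl1, Mx1, Mx2, Rsad2 and Phf11d were not tested.

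The call rests on comparing libraries within pairs. Without the pair block, limma called 0 of the 11604 genes, and the smallest adjusted p of a member was 0.133. In that fit 18 members had an unadjusted p under 0.05, as did 1960 genes (16.9%). DESeq2 without the block called 7 members as lower, beside 1.19% of all genes, and 0 as higher, beside 1.47%. Leaving out pair 2 left 8 members that fell, beside 3.71% of all genes, and 7 of those were among the 15. The 8 that lost the call were Stat2, Irf1, Irf9, Zbp1, Gbp4, Gbp9, Igtp and Phf11b. Irf1, Irf9, Gbp4, Gbp9 and Igtp lost it without pair 3 as well, and Phf11b without pair 1. The authors' deposited table, from a fit of the same libraries, marks 15 members as lower and 0 as higher at an adjusted p under 0.05. It gives an adjusted p for 35 members and has Iigp1 in place of Gbp9. Of all 10742 genes with an adjusted p there, 534 were lower and 502 higher.

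Read pair by pair, 35 of the 41 tested members were lower in T58A in pair 1, 38 in pair 2 and 35 in pair 3. Over all genes the shares that were lower in the same pairs were 51.0%, 49.9% and 50.8%. The members' median log2 difference was -0.38, -0.44 and -0.41 in pairs 1, 2 and 3, while that of all genes stayed between -0.01 and 0.00. Each of the 15 members that fell was lower in all 3 pairs, which adds no support, since the test on these same pairs selected them. Pair 3 is the one in which both libraries are low in Xist and hold the Y-linked genes. The T58A and WT groups did not overlap in 18 tested members, all with T58A below WT, as did 10.8% of all genes, and 0 members had T58A wholly above WT, against 12.9% of all genes.

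**Figure D3:**
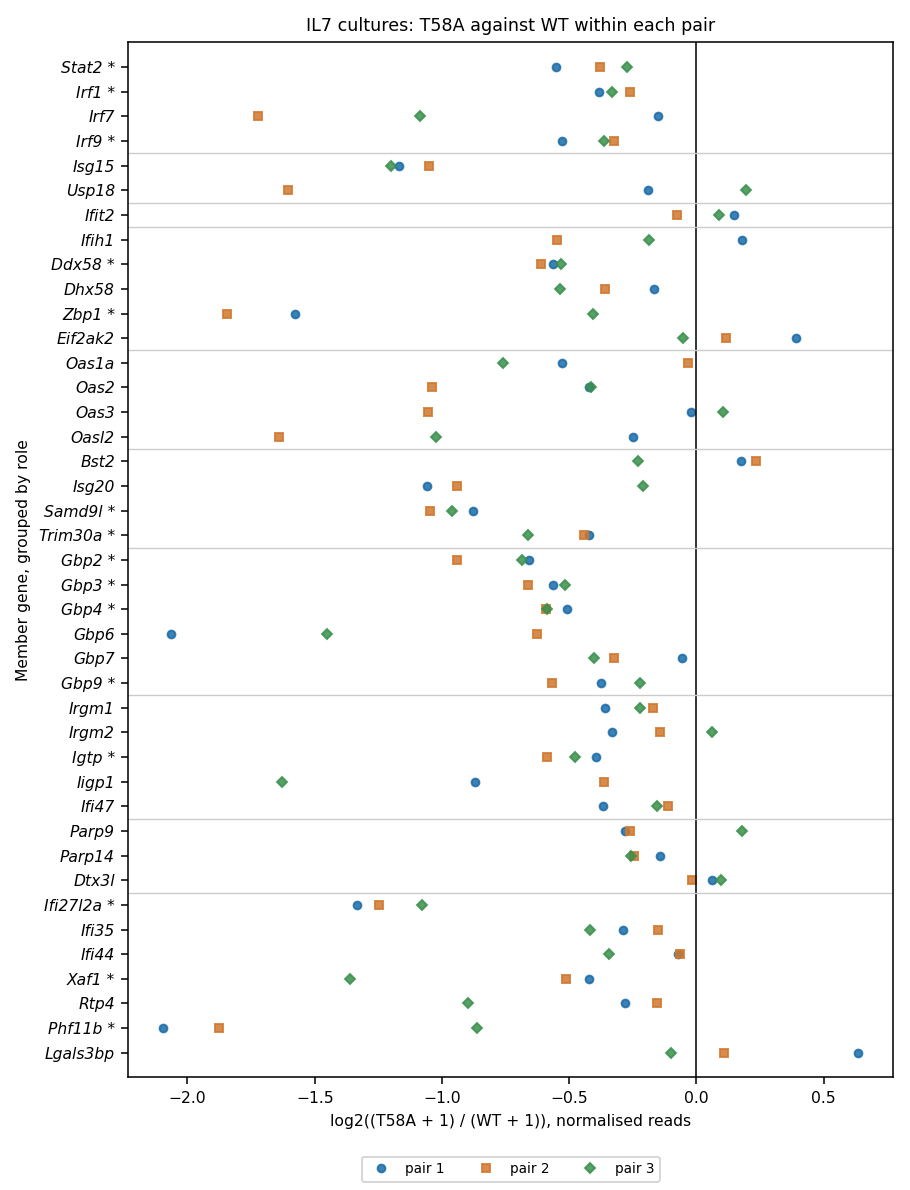
Log2 difference of T58A minus WT within each IL7 pair (x axis, log2 of normalised reads plus 1) for the 41 tested members, grouped by role (y axis), with 1 marker per pair and a star on members that fell. Members lie left of 0 in 35, 38 and 35 of 41 cases in pairs 1, 2 and 3.

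Transcription factors of the pathway fell by small steps, and none of the 3 calls held without pair 2. Stat2, a subunit of ISGF3, was at 981, 870 and 719 normalised reads in WT 1 to 3 and 668, 670 and 595 in T58A 1 to 3. Every T58A value lay below every WT value (log2 -0.40 ± 0.08 SE, adjusted p from limma = 0.0196). Irf9, the DNA-binding subunit of ISGF3, was at 549, 498 and 586 in WT and 381, 398 and 456 in T58A, again without overlap (log2 -0.40 ± 0.09, adjusted p from limma = 0.0230). Irf1, which drives the response to interferon gamma, was at 1004, 878 and 1250 in WT and 770, 733 and 994 in T58A. T58A 3 was above WT 2, so the Irf1 groups overlapped and only the pairs separate them (log2 -0.32 ± 0.07, adjusted p from limma = 0.0241). Irf7 was at 28.8, 53.4 and 37.4 in WT and 25.8, 15.5 and 17.1 in T58A and did not pass the test (adjusted p from limma = 0.0905).

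Among the nucleic acid sensors, Ddx58 and Zbp1 fell. Ddx58 encodes RIG-I, the sensor of viral RNA ends, and was at 422, 361 and 335 normalised reads in WT and 285, 236 and 231 in T58A. The fall was 1.48-fold, without overlap (log2 -0.57 ± 0.10, adjusted p from limma = 0.0101). Zbp1, a sensor of Z-form nucleic acids that can trigger cell death, was at 91.9, 80.6 and 49.5 in WT and 30.1, 21.7 and 37.1 in T58A. Its fall was 2.42-fold and smallest in pair 3 (log2 -1.28 ± 0.30, adjusted p from limma = 0.0278). The related helicases Ifih1 and Dhx58 had log2 differences of -0.19 and -0.35, and the RNA-activated kinase Eif2ak2 had 0.15, none of which passed the test.

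Samd9l and Trim30a fell among the restriction factors, proteins that block viral replication. Samd9l, an antiviral protein that also restrains growth, had the smallest p of all members. It was at 1028, 873 and 571 normalised reads in WT 1 to 3 and at 559, 422 and 293 in T58A 1 to 3. The lowest WT library lay just above the highest T58A library, while the fall within pairs averaged 1.95-fold (log2 -0.96 ± 0.08, adjusted p from limma = 0.00148). Trim30a was at 916, 863 and 966 in WT and 684, 635 and 610 in T58A, without overlap (log2 -0.51 ± 0.08, adjusted p from limma = 0.00891). Isg20, an exonuclease that degrades RNA, was at 97.5, 126 and 87.0 in WT and 46.3, 65.1 and 75.1 in T58A. It lay just outside the threshold (adjusted p from limma = 0.0506). Bst2, the tetherin that holds budding virus at the cell surface, had a log2 difference of 0.06 with overlapping groups. Mx1 and Mx2, dynamin-like antiviral GTPases, were too low to test. Mx1 had 12, 21 and 8 reads in WT and 2, 3 and 1 in T58A, and Mx2 had 18, 7 and 6 in WT and 4, 4 and 2 in T58A. Neither gene's groups overlapped. Rsad2 had 1 to 5 reads in each IL7 WT library and 3 to 5 in each T58A library.

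Guanylate-binding proteins are GTPases that coat and break pathogen vacuoles, and 4 of the 6 on the list fell, beside 6.31% of all genes. The calls of Gbp4 and Gbp9 did not hold without pair 2, nor without pair 3. Gbp3 was at 972, 983 and 1123 normalised reads in WT and 657, 620 and 785 in T58A, without overlap (log2 -0.58 ± 0.07, adjusted p from limma = 0.00456). Gbp2 was at 481, 409 and 700 in WT and 304, 213 and 435 in T58A, a fall of 1.70-fold (log2 -0.76 ± 0.10, adjusted p from limma = 0.00456). WT 3 and T58A 3 were the highest of their groups for both genes, and the Gbp2 groups overlapped. Gbp4 was at 233, 192 and 325 in WT and 164, 127 and 216 in T58A (log2 -0.56 ± 0.11, adjusted p from limma = 0.0175). Gbp9, which overlaps Gbp4 in the annotation, was at 348, 330 and 465 in WT and 268, 222 and 399 in T58A (log2 -0.39 ± 0.10, adjusted p from limma = 0.0448). The groups of both overlapped, and DESeq2 with the same block did not call Gbp9. Gbp6 and Gbp7 had log2 differences of -1.38 and -0.26 and lay just outside the threshold (adjusted p from limma = 0.0551 and 0.0640).

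Immunity-related GTPases act on the same vacuoles, and 1 of the 5 listed fell, beside 6.31% of all genes. That call, of Igtp, did not hold without pair 2, nor without pair 3. Igtp, also known as IRGM3, was at 399, 350 and 560 normalised reads in WT and 303, 233 and 402 in T58A. The groups overlapped between pairs, and the fall within pairs was 1.40-fold (log2 -0.49 ± 0.09, adjusted p from limma = 0.0156). Iigp1 was at 36.2, 33.5 and 208 in WT and 19.4, 25.8 and 66.6 in T58A, with WT 3 far above the rest (log2 -0.95 ± 0.27, adjusted p from limma = 0.0527). It was called by edgeR with the block. Irgm1, Irgm2 and Ifi47 had log2 differences of -0.25, -0.14 and -0.21 and did not pass.

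Of the members with other or less settled roles, Ifi27l2a, Xaf1 and Phf11b fell. Ifi27l2a, a small membrane protein, had the highest level per kilobase of the list in WT cells of both cultures, at 804 normalised reads per kilobase in IL7 WT. It was at 465, 421 and 230 normalised reads in WT and 184, 177 and 108 in T58A, a fall of 2.33-fold without overlap (log2 -1.22 ± 0.11, adjusted p from limma = 0.00223). Xaf1, which counters an inhibitor of cell death, was at 562, 583 and 642 in WT and 420, 408 and 249 in T58A, with its widest gap in pair 3 (log2 -0.77 ± 0.17, adjusted p from limma = 0.0233). Phf11b was at 53.8, 44.4 and 19.8 in WT and 11.8, 11.4 and 10.5 in T58A (log2 -1.61 ± 0.34, adjusted p from limma = 0.0220). Its reads may include those of Phf11a and Phf11c. Ifi35, Ifi44 and Rtp4 had negative log2 differences of -0.29, -0.16 and -0.44 and the secreted glycoprotein Lgals3bp had 0.21, none past the threshold.

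**Figure D4:**
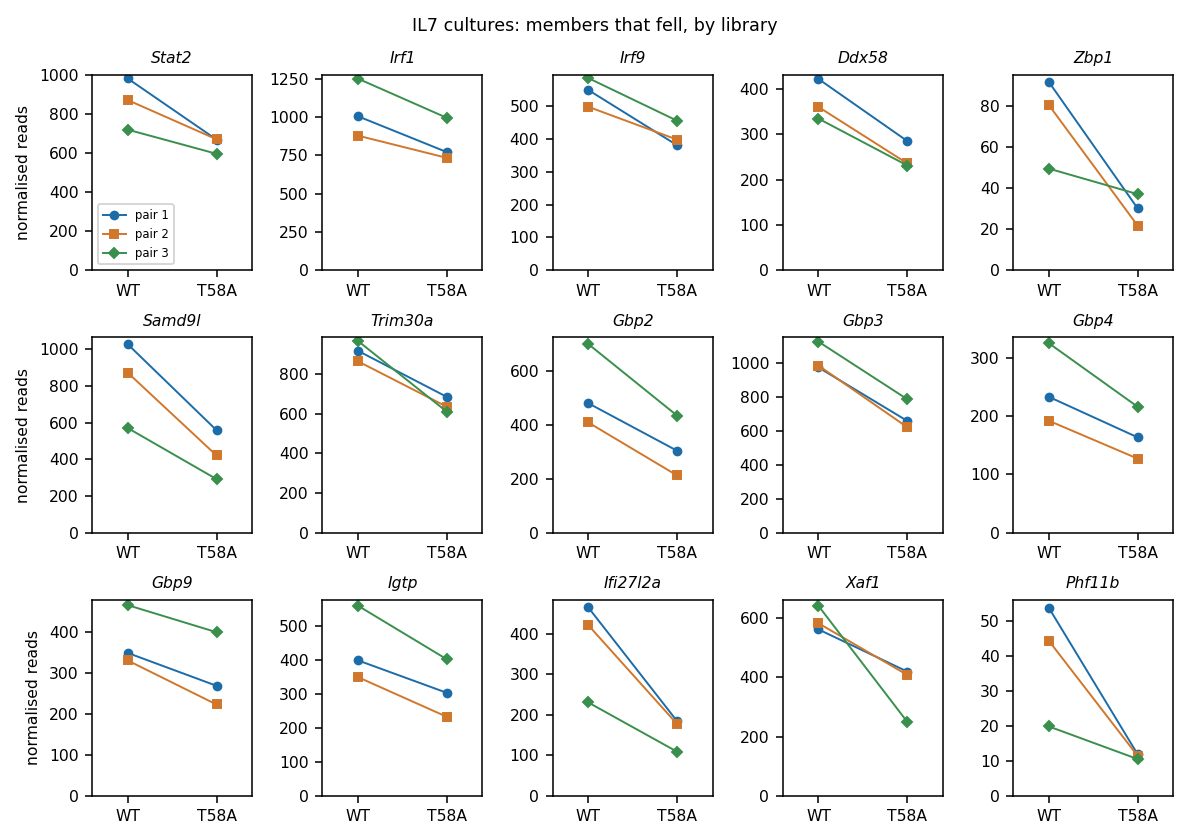
Normalised reads in each IL7 library (y axis, linear from 0) for the 15 members that fell in T58A, with 1 line joining WT and T58A of each pair. Every line falls from WT to T58A, from 1028 to 559 for Samd9l in pair 1, for example, while the level of a pair shifts from gene to gene. The test on these same pairs selected the members.

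In the other 4 roles no member passed the test. Isg15, the ubiquitin-like modifier, was at 27.8, 11.8 and 25.3 normalised reads in WT and 11.8, 5.17 and 10.5 in T58A, lower in every pair but on few reads (log2 -1.14 ± 0.35, adjusted p from limma = 0.0678). Its protease Usp18 had a log2 difference of -0.53. Oasl2, of the family that makes or resembles the activators of RNase L, was at 13.0, 11.8 and 16.5 in WT and 10.8, 3.10 and 7.61 in T58A (log2 -0.97 ± 0.45, adjusted p from limma = 0.187). Oas1a, Oas2 and Oas3 had -0.44, -0.63 and -0.32 on the same scale. Ifit2 was at 168, 226 and 219 in WT and 186, 214 and 233 in T58A, with overlapping groups (log2 0.05 ± 0.11, adjusted p from limma = 0.794). Parp14, a mono-ADP-ribosyltransferase, was at 1004, 1135 and 1188 in WT and 910, 957 and 994 in T58A (log2 -0.21 ± 0.07, adjusted p from limma = 0.0785). Its relative Parp9 and the ubiquitin ligase Dtx3l, which work as a complex, had -0.12 and 0.05.

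Other genes of the pathway were read from fixed lists. Of 15 receptor and signalling genes 5 fell in T58A IL7 cultures and 0 rose, and all 15 had a negative log2 difference (median -0.27), where 6.31% of all genes fell and 6.41% rose. The phosphatase Ptpn6 and the feedback inhibitor Socs3, both brakes on this signalling, were among those that fell, by 0.60 and 0.50 on the log2 scale. Of 16 tested genes that sense nucleic acids and induce interferon 2 fell, the factor Irf5 (log2 -0.58) and the Toll-like receptor chaperone Unc93b1 (log2 -0.64), a count that is read against the same 6.31%. Among 43 tested interferon-induced genes beyond the 48, 14 fell and 1 rose (median -0.31). Those with the smallest p were Sp100, Casp4 and Casp1, with log2 differences of -0.73, -0.96 and -0.63. Of 10 interferon genes, 8 had 0 reads in all libraries of both cultures, and the summed level of the list was at most 8.35 normalised reads in any IL7 library.

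Markers of B cell stages and of other cells moved with genotype in part. Counts of markers that fell are read against the 6.31% of all genes that fell and the 6.41% that rose. A list of 12 myeloid genes summed to 2297, 1428 and 2610 normalised reads in IL7 WT and to 1362, 1466 and 922 in T58A, so it was lower in T58A in pairs 1 and 3 and not in pair 2. Its largest gene was Ctss, at 1350, 905 and 858 in WT and 749, 672 and 573 in T58A, and at 3089 to 5150 in LPS cultures. The other 11 summed to 948, 524 and 1752 in WT and 613, 794 and 349 in T58A, higher in T58A in pair 2. Of the 9 myeloid genes tested Ctss alone fell, and all 9 had a negative log2 difference (median -0.89). Mature B cell markers (6 genes) summed to 34746, 17682 and 9548 in WT and 16562, 9429 and 5424 in T58A, lower in every pair, and 4 of the 6 fell. The general B cell markers were lower in every pair too, at 46272, 32433 and 30113 against 31168, 28027 and 25686, and 2 of the 5 fell. Precursor markers summed to 17267, 18384 and 23606 against 16712, 16151 and 19102, and 2 of the 7 fell, Rag1 and Rag2. Among 5 plasmablast markers Igj fell (log2 -2.05), with WT 2 far above the other libraries, and Sdc1 rose (log2 0.47). Of 7 plasmacytoid dendritic cell markers, Spib, which B cells also express, made up nearly the whole sum and fell. It was at 11011, 8238 and 6125 in WT and 7397, 5991 and 5337 in T58A. The other 6 summed to 127, 125 and 68.3 in WT and 75.3, 69.2 and 67.5 in T58A. Of 12 T and NK cell markers, Thy1 made up most of the sum and rose, at 386, 717 and 946 in WT and 766, 1101 and 990 in T58A. The other 11 summed to 60.3, 36.2 and 34.1 in WT and 26.9, 41.3 and 10.5 in T58A. The 4 globin genes of an erythroid list had 0 reads in every library. The part of these shifts in the lower level of the 15 members was not tested. In bulk RNA, fewer cells of a type and less RNA per cell cannot be told apart.

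In LPS cultures no member passed the test in T58A against WT. Of the 48 members 47 were tested, all but Iigp1, and limma called 0 of them and 0 of the 11291 genes. At an unadjusted p under 0.05 there was 1 member, Gbp6, and 284 genes (2.52%). Across all genes edgeR called 0 and DESeq2 called 1 (0.00886%), which is no member. The log2 difference was negative in 42 members and positive in 5, with a median of -0.16 against 0.01 over all genes. T58A lay wholly below WT in 2 members, Gbp4 and Gbp6, and in 3.30% of all genes, and wholly above it in 0 members and in 3.10% of all genes.

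The direction in LPS cultures rested on 1 library. The second unnumbered T58A column was below the WT mean in 47 of 47 tested members (median log2 -0.64) and was the lowest of the 6 libraries in 38, as it was in 22.1% of all genes. T58A 3 was the highest library in 24 of 47 members, against 15.9% of all genes, and was below the WT mean in 8 (median 0.24). The first unnumbered column was below the WT mean in 33 (median -0.11). Without the second unnumbered column the members' median became 0.06. In pair 3, the only pair that the headers identify, 8 of 47 members were lower in T58A, with a median of 0.21. Set against WT 1, the first unnumbered column was lower in 31 members (median -0.08). The second, set against WT 2, was lower in 46 (median -0.67). With the columns exchanged, the first was lower in 31 (median -0.24) and the second in 44 (median -0.63). The libraries also differed in plasmablast markers, which summed to 19399 normalised reads in the second unnumbered column, 34508 in the first, 57062 in T58A 3 and 83441, 31938 and 84330 in WT 1 to 3. The part of plasmablasts in this spread was not tested.

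**Figure D5:**
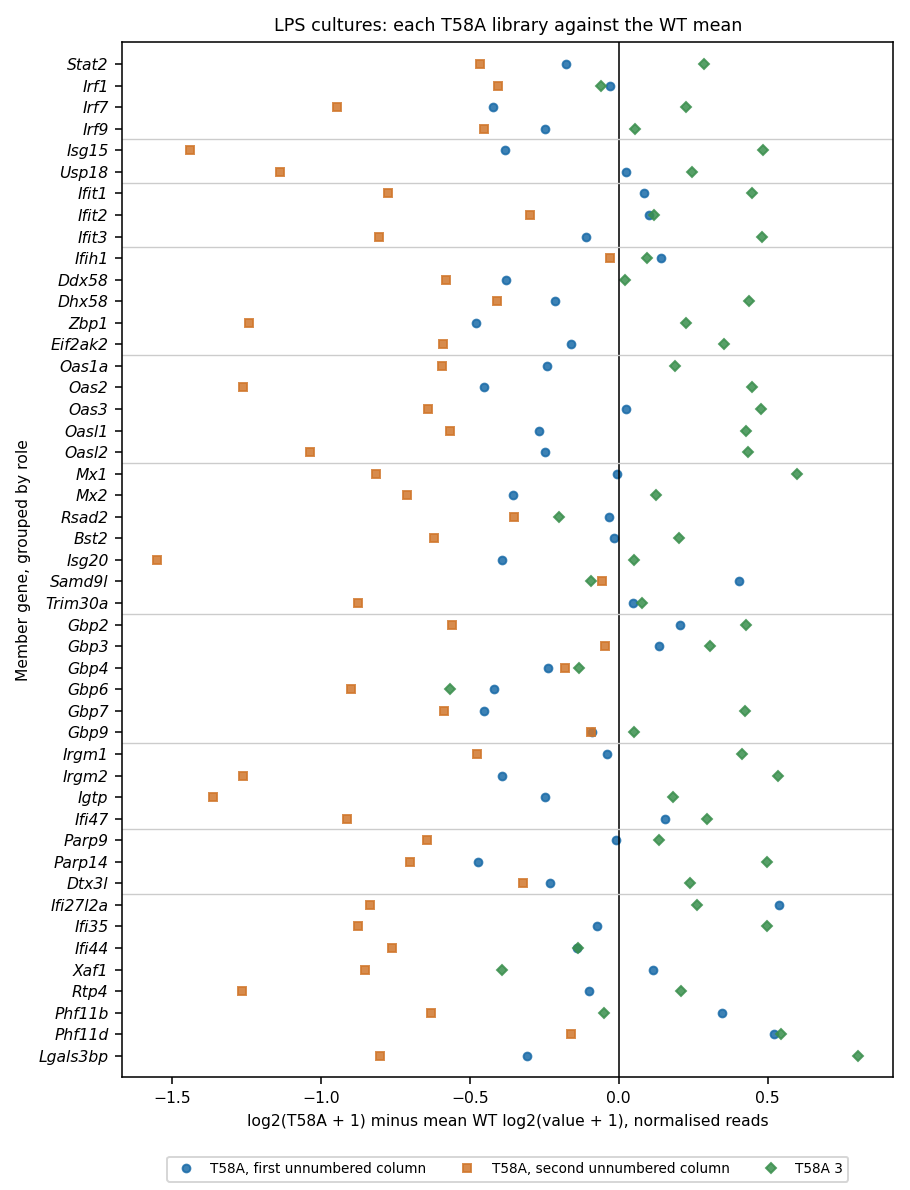
Log2 difference of each LPS T58A library from the mean of the 3 WT libraries (x axis, log2 of normalised reads plus 1) for the 47 tested members, grouped by role (y axis). Squares of the second unnumbered column lie left of 0 in 47 of 47 members, and diamonds of T58A 3 do so in 8.

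Values in single LPS libraries show the same spread. Gbp6 was at 111, 99.4 and 69.8 normalised reads in WT 1 to 3 and at 68.4, 48.7 and 61.6 in the first unnumbered column, the second and T58A 3 (log2 -0.63 ± 0.26 SE, adjusted p from limma = 1). Ddx58 was at 1345, 1406 and 1440 in WT and 1074, 934 and 1418 in T58A in that order (log2 -0.31 ± 0.18). Xaf1 was at 1261, 1159 and 1013 in WT and 1234, 632 and 868 in T58A (log2 -0.38 ± 0.23). The groups of Ddx58 and Xaf1 overlapped. Of the members with positive differences, Gbp3 was at 1019, 1041 and 1235 in WT and 1201, 1061 and 1353 in T58A (log2 0.13 ± 0.16). Samd9l was at 2800, 2928 and 1971 in WT and 3347, 2434 and 2371 in T58A (log2 0.09 ± 0.21). Phf11d was at 5.49, 10.4 and 15.7 in WT and 14.4, 8.60 and 14.7 in T58A, on few reads (log2 0.30 ± 0.50). All 3 had overlapping groups.

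A block for the pair can be placed in LPS cultures only by inference. A paired fit gave 99.75% of the deposited p-values within 1% with the first unnumbered column in pair 1, and 17.01% with it in pair 2. With the block placed that way limma called 0 members, beside 0.0177% of all genes in each direction, and the smallest adjusted p was 0.0858, for Isg20. DESeq2 with that block called Isg20 alone, beside 1.25% of all genes that were lower and 0.691% that were higher. The authors' deposited table, from a fit of the same libraries, marks Isg20 as the 1 lower member in LPS cultures (DESeq2 adjusted p = 0.00205). It gives an adjusted p for 34 members and marks none as higher. Of all 5359 genes with an adjusted p there, 145 were lower and 80 higher. Isg20 was at 1411, 724 and 1358 normalised reads in WT 1 to 3 and 850, 381 and 1155 in T58A, lower in each of the pairs so placed. Plasmablast markers were also lower in T58A in each of these pairs (sums above), all 5 had a negative log2 difference, and their median was -0.60 beside -0.63 for Isg20. Their part in the lower Isg20 was not tested.

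Whether the T58A effect differed between cultures was tested over all 12 libraries. Without a block limma called 0 of the 40 members tested in both cultures and 0 of 10767 genes (4 members and 4.45% of all genes at an unadjusted p under 0.05). With the pair as a block, placed as above, 5 members had a more negative effect in IL7 cultures, beside 3.19% of all genes. These were Samd9l (difference of log2 effects -1.05 ± 0.14 SE, adjusted p from limma = 0.00639), Gbp3 (-0.71 ± 0.10, adjusted p from limma = 0.00901), Ifi27l2a (-1.21 ± 0.20, adjusted p from limma = 0.0116), Phf11b (-1.50 ± 0.31, adjusted p from limma = 0.0272) and Gbp2 (-0.79 ± 0.18, adjusted p from limma = 0.0429). No member had a more positive effect there, beside 0.901% of all genes. In LPS cultures Ifi27l2a was at 5436, 3899 and 4972 normalised reads in WT and 6856, 2650 and 5666 in T58A, Gbp2 was at 1107, 1102 and 1385 against 1374, 807 and 1604, and Phf11b was at 499, 334 and 396 against 514, 261 and 390. The groups of all 3 overlapped. Without IL7 pair 2 the block called 3 of the 5, Samd9l, Gbp3 and Ifi27l2a, and with the unnumbered columns exchanged it called 0. The 5 calls were thus made only with the pair block and the placement that gave 99.75% of the deposited LPS p-values within 1%. The exchanged placement gave 17.01%.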

How the data were processed

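The submitters' processing notes name bcl2fastq 1.8.4, TopHat2 2.1.0, HTSeq 0.6.1, DESeq2 and the build mm10. Strand and multi-mapping settings are not given in the sources used here. The authors deposited a normalised signal for each gene in each library, and 100% of these values are whole reads, within 0.001, divided by 1 size factor per library. Their tables further hold log2 fold changes, p-values and adjusted p-values per gene, as deposited. Genes were kept with filterByExpr (minimum count 10, minimum total 15) and tested with limma 3.58.1 in R 4.3.3 on log2(value + 1), within each culture, with Benjamini-Hochberg adjustment over all genes at 0.05. WT cultures were compared on TMM-scaled log2 CPM (prior count 1). edgeR 4.0.16 and DESeq2 1.42.0 on the recovered reads were alternatives, as were pseudocounts of 0.5 and 5, TMM scaling, other filters, other blocks and leaving out pairs or libraries.

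The IL7 fit has the pair as a block. Titles number the pairs, and deviations of same-numbered IL7 libraries from their group means correlated at 0.411, 0.152 and 0.397. Same-numbered IL7 WT and LPS WT libraries correlated at 0.15, 0.143 and 0.309, so the WT cultures were also compared with the number as a block. A paired DESeq2 fit gave 94.03% of the deposited IL7 p-values within 1%. The LPS fit has no block because 2 columns lack a number. Locations are from GENCODE M21 (GRCm38), which may not be the authors' annotation. The test was also run on simulated data with the same spread set for every gene. That setting is simpler than these libraries, so the run does not bear on the calls given here.

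Members, lists and tests were chosen with earlier results of these data known. Values in every library are given for each member called in IL7 cultures, the member with the smallest p of each role there, the 3 with the smallest p in each direction in LPS cultures, those called in the interaction, and the 3 most different in each direction between WT cultures. Irf7, Isg20, Iigp1, Mx1 and Mx2 were added after their values were seen. From the signalling list, 1 gene that the rule takes is not reported here. Promoters of Usp18, Dhx58, Zbp1, Oas2, Mx1, Mx2, Gbp4, Gbp6, Gbp9, Iigp1, Parp9, Parp14, Ifi27l2a and Rtp4 were not analysed here.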

Additional observations from a re-analysis of the deposited data

Results flagged for a closer look

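The T58A effect of 5 members differed between the IL7 and LPS cultures in the fit with the pair block, by a test of the difference itself. The log2 effect in IL7 minus that in LPS cultures was -1.05 for Samd9l, -0.79 for Gbp2, -0.71 for Gbp3, -1.21 for Ifi27l2a and -1.50 for Phf11b. None of the 5 passed without the block, where each had an adjusted p of 0.996 in limma, and none with the unnumbered LPS columns exchanged. The exchanged placement gave 17.01% of the deposited LPS p-values within 1%, and the one used gave 99.75%. Without IL7 pair 2 the adjusted p from limma with the block was 0.0201 for Samd9l, 0.0284 for Gbp3, 0.0309 for Ifi27l2a, 0.0724 for Phf11b and 0.111 for Gbp2.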

How the results depend on the processing

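The pair decides the IL7 calls. Without the replicate block 0 members fell in limma and 7 in DESeq2, against 15 with it. Leaving out each pair in turn gave 8 to 17 members that fell and medians of -0.417 to -0.501. The median was -0.401 with a pseudocount of 5 and -0.355 among genes with a mean of at least 50 normalised reads. Of the alternative values for members named in IL7 cultures, 183 kept their direction and side of the threshold, 37 lost the threshold and 0 changed sign. In LPS cultures the median ran from -0.378 to 0.0638 as each library was left out, and it turned positive without the second unnumbered T58A column. With the replicate block placed by the deposited p-values, DESeq2 gave 1 member that fell there. Of the members named in LPS cultures, Phf11d ran from -0.0599 (without WT 1) to 0.623 (without WT 3) as each library was left out. Samd9l ran from -0.0937 (without WT 3) to 0.192 (without WT 2) and was -0.0736 without the first unnumbered column. The interaction gave 5 members with the replicate block and 3 with it and without IL7 pair 2, against 0 without it. Between WT cultures the replicate block gave the same counts, 44 higher in LPS and 2 in IL7, and the other alternatives gave 43 to 45 and 2. The cause of these changes was not tested. Depth limits Ifit1, Ifit3, Oasl1, Mx1, Mx2, Rsad2 and Phf11d in IL7 and Iigp1 in LPS cultures.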

Other observations

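Among the 7 members too low to test in IL7 cultures, Rsad2 had the higher mean in T58A and the others the lower mean, all on few reads. Rsad2 had 1, 5 and 1 reads in WT 1 to 3 and 3, 5 and 4 in T58A 1 to 3. Without the read filter Mx1 passed as well in limma with the pair block. The members' WT 3 library was the highest of the 6 IL7 libraries in 21 of 41 tested members, against 15.5% of all genes.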
